A study of Mus musculus with 15 samples.

Results

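The genes described here encode the enzymes, membrane proteins and cofactors of the lysosome, core factors of autophagy, and the transcription factors that drive both. They are 38 genes out of 23352 in the deposited table, which lists each symbol once. They were picked by symbol and not by a cut-off on measured values, but with earlier results of these data known. Of the 38, 37 passed the filter on low values (at least 1 FPKM in at least 3 of 15 libraries) and were tested. The exception was Ctsk, a collagen-degrading protease best known from osteoclasts, whose highest group mean was 0.134 FPKM.

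C2C12 is an established line of mouse myoblasts, the cells that fuse into muscle fibres, and MLX is a DNA-binding partner of the glucose-responsive factors MondoA and ChREBP. Messenger RNA was sequenced from C2C12 cells transduced with lentivirus for MLX of wild type (MLX-WT), for a dominant-negative form of it (MLX-DN), a short hairpin RNA that targets MLX (MLX shRNA), a non-targeting hairpin (NT shRNA), or from cells with a control vector for GFP only, called an empty vector in the growth protocol (GFP control), with 3 libraries in each of the 5 groups. All 5 groups were labelled as myoblasts and all carried a lentiviral or vector construct, so none was an untransduced culture. The series' design text describes raised and lowered MLX activity. The promoters that drive the constructs, the time after transduction and the use of clones or pools are not given in the sources used here. No label says that a group's libraries are separate cultures. The p-values therefore cover only how far libraries of a group spread, and that spread may be technical.

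Lysosomes are acidic compartments in which proteases, sugar-cleaving enzymes and lipases break down material delivered by endocytosis and by autophagy, the process that wraps parts of the cytoplasm in a closed membrane. Many genes of this pathway share a short palindromic promoter motif, the CLEAR element, that is bound by TFEB, TFE3 and MITF when nutrients are scarce or lysosomes are stressed. MLX belongs to the same broad class of basic helix-loop-helix leucine zipper proteins, and its complexes recognise related E-box sequences. In the worm Caenorhabditis elegans the counterparts of MondoA and MLX act together with the counterpart of TFEB. In skeletal muscle, faults in lysosomal glycogen breakdown and in autophagy cause wasting disease in people.

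Mlx RNA was read first as a check of the constructs. It lay between 632 and 655 FPKM with MLX-WT, 384 and 399.9 in MLX-DN cells and 2.80 and 3.95 with MLX shRNA, against 16.3 to 17.9 with NT shRNA and 16.6 to 17.6 in the GFP control. The values of MLX-WT and MLX-DN may include construct reads, and no protein was measured. Depth estimated from the steps between low values was 37.0 to 82.6 M reads per library, and within a group the log2 values of 11945 tested genes had r = 0.998 to 0.999. Of 5 myoblast genes, Des, Cdh15 and Myod1 were high everywhere (1003 to 1199.6, 130 to 190 and 58.5 to 95.2 FPKM). Myf5 (3.64 to 12.9 FPKM) and Pax7 (0.768 to 4.29) were lower. By group mean Myf5 was highest with MLX-WT (12.9) and lowest with NT shRNA (3.76). Pax7 was highest with MLX shRNA (4.22) and lowest in the GFP control (0.872). Myotube genes such as Acta1 (2276 to 3173 FPKM) and Myh3 (478 to 1022) were high too, although every library is labelled myoblast. The 7 myotube genes summed to 7687 to 7838 FPKM with MLX-WT, 6688 to 6902 in MLX-DN cells and 7500 to 8052 with MLX shRNA. The sum was 6047 to 6247 with NT shRNA and 7136 to 7254 in the GFP control. Myh3 averaged 538 FPKM in MLX-DN cells and 492 with NT shRNA, against 935 to 988 in the other groups. Myog had another order, highest with MLX-DN (706) and lowest in the GFP control (445). Of 9 macrophage and osteoclast markers in the table, Emr1 was at 0 in all 15 libraries and the summed level was 8.13 to 8.72 FPKM with MLX-DN, against 4.45 to 7.40 in the other 12 libraries. Ptprc, a leukocyte surface marker, averaged 4.55 FPKM with MLX-DN and at most 0.00330 in any other group. The higher sum rests on this gene. Cd14 and Cd68 had their lowest group means with MLX-DN (2.42 and 0.871 FPKM), and each remaining marker stayed at or below 0.481 FPKM. Of 5 fibroblast markers, Col1a1 made up most of a summed level of 152.5 to 154.9 FPKM with MLX-WT, 41.6 to 46.6 in MLX-DN cells, 48.2 to 49.8 with MLX shRNA, 206 to 224 with NT shRNA and 441 to 450.4 in the GFP control. The 3 adipocyte markers stayed at or below 0.0516 FPKM, and of 4 melanocyte markers (cells that depend on Mitf) only Dct, at 2.68 FPKM with MLX-WT, averaged 1 FPKM or more in any group. The part of any of these in the results below was not tested, and in bulk RNA fewer cells of a type cannot be told apart from less RNA per cell.

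Levels of the 38 genes differed widely, and since FPKM is scaled by transcript length they can be set beside each other. The tetraspanin gene Cd63 was highest (1126 to 1526 FPKM over the 15 libraries), followed by the proteases Ctsd (369.8 to 588) and Ctsl (252 to 346) and by Psap, Lamp1 and Sqstm1. Cln3, Idua, Sgsh and Mitf stayed below 3 FPKM. The summed level was 3410 to 3492 FPKM in the MLX-DN libraries, against 3925 to 4001 with MLX-WT, 3954 to 4014 with MLX shRNA, 3864 to 3989 with NT shRNA and 3665 to 3749 in the GFP control. All 3 MLX-DN libraries therefore had a smaller sum than the other 12, also without Cd63 (2207 to 2266 FPKM, against 2440 to 2635). By group mean, MLX-DN was the lowest of the 5 groups for 18 of 37 tested genes (29.1% of all tested genes), and the GFP control was the highest for 21 (32.6% of all).

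**Figure D1:**
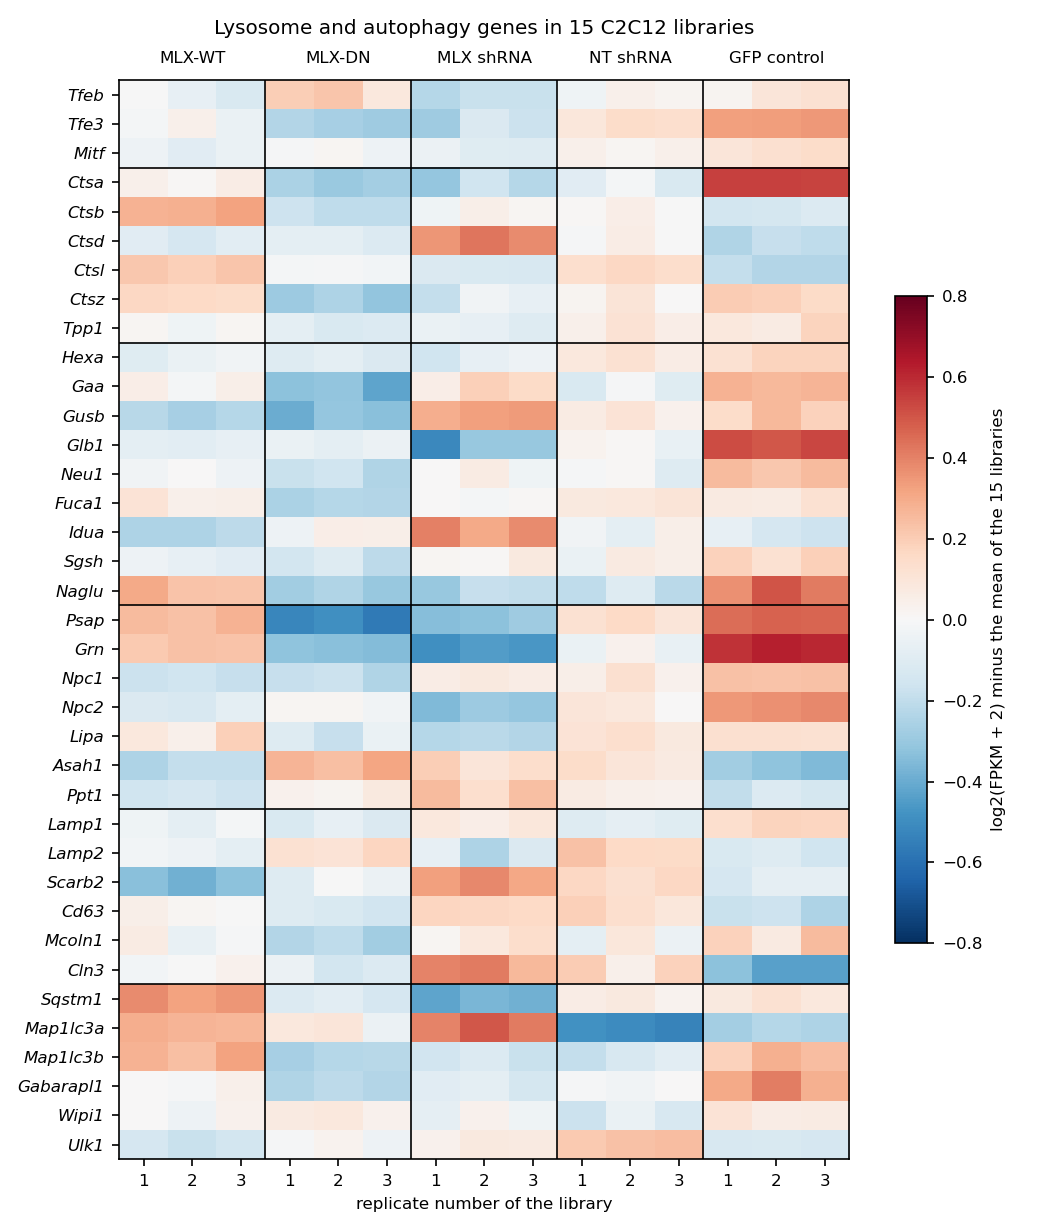
Colour gives log2(FPKM + 2) minus the mean of the 15 libraries for each of the 37 tested genes (rows, ordered by role from transcription factors to autophagy, with lines between roles) in each library (columns, 3 per group). The MLX-DN columns hold the lowest group mean for 18 genes and the GFP control columns the highest for 21.

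Promoter windows were read for the motif these factors bind. RefSeq windows (build GRCm38.p6, 250 bases before to 50 after each annotated start) were found for 34 of the 38 genes. The E-box core CACGTG occurred in 10 of the 34 (29.4%), against 8.09% of 27025 gene symbols with a window and 12.1% of the 8685 tested genes with one. The 8-base CLEAR core TCACGTGA, each copy of which contains a CACGTG, occurred in 4 of the 34 (11.8%), against 1.12% and 2.37%. Both motifs read the same on both strands. An arrangement of 2 CACGTG with 5 bases between them, as in carbohydrate response elements that MLX complexes bind, was in none of the windows in this strict form. The genes with TCACGTGA were Ctsa, Ctsd, Mcoln1 and Cln3, and those with CACGTG alone were Ctsl, Gaa, Glb1, Lamp1, Naglu and Sgsh. The stretch from 150 bases before to 15 after the start is shown for the genes with TCACGTGA, for Lamp1, which has 4 E-box cores, and for Gaa and Naglu, glycan-degrading enzymes whose levels fell most with MLX-DN, on the log2(FPKM + 2) scale, among the genes with a single core. Capitals mark TCACGTGA or, elsewhere, CACGTG. The positions are chr2:164833623-164833787 (plus strand), chr7:142387813-142387977 (minus), chr8:3500369-3500533 (plus), chr7:126583222-126583386 (minus), chr8:13159011-13159175 (plus), chr11:119267813-119267977 (plus) and chr11:101069944-101070108 (plus).
Ctsa: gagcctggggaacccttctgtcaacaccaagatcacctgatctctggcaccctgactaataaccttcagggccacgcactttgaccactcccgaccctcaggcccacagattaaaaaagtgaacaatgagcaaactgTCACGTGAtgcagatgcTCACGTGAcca
Ctsd: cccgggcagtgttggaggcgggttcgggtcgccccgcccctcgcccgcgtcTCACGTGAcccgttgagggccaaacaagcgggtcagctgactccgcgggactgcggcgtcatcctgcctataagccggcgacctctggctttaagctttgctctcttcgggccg
Mcoln1: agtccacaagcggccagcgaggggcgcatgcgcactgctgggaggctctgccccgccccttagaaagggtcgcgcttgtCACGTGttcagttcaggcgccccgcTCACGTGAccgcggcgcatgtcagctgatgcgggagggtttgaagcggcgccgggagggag
Cln3: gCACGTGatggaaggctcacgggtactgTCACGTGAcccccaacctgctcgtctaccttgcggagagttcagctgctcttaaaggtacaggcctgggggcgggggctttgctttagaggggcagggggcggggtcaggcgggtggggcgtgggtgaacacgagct
Lamp1: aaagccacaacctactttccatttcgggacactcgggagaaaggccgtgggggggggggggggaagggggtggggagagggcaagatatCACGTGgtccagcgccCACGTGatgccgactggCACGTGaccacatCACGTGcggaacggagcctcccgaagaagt
Gaa: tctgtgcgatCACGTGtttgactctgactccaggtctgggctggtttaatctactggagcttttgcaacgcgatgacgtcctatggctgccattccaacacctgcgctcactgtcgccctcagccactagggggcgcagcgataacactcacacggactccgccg
Naglu: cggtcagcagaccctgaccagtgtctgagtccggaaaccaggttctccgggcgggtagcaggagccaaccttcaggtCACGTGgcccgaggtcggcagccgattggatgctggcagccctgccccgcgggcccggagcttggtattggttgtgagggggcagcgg

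Counted from the annotated start, the cores of Ctsa begin at -12 and 6, those of Lamp1 between -61 and -15, and the single core of Gaa at -140. A match is a description of the letters and not evidence of binding, and these coordinates are not those of mm9, the build that the submitters' processing notes name.

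**Figure D2:**
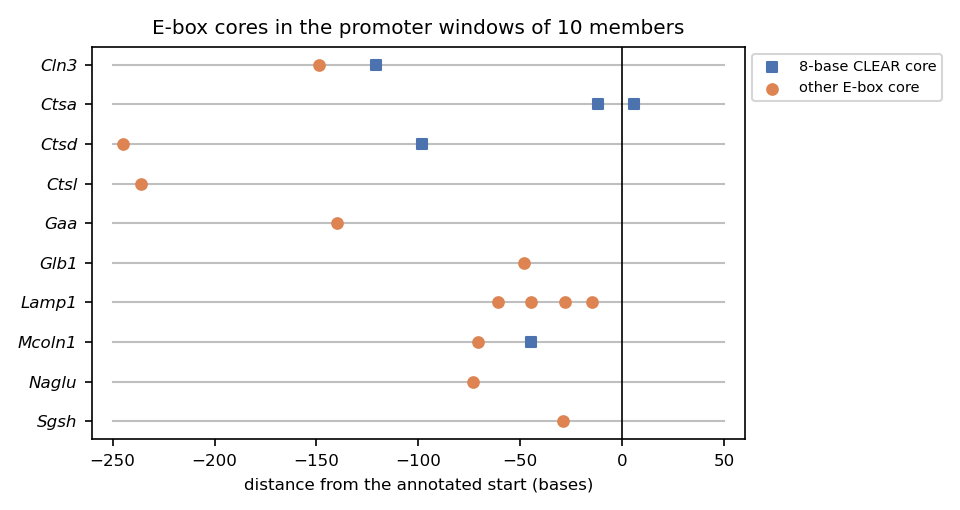
Each mark is an E-box core in the promoter window of 1 of the 10 genes that have any, placed by the distance of its start from the annotated start of transcription in bases (vertical line). Squares mark the 8-base CLEAR core, present in Cln3, Ctsa, Ctsd and Mcoln1, and circles the other cores, of which Lamp1 has 4.

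In each main comparison more of these genes were lower than higher. With MLX-WT, 8 of 37 were higher and 22 lower than in the GFP control (limma, adjusted p under 0.05), where 27.6% of all tested genes were higher and 42.7% lower, 70.3% in either direction. With MLX-DN, 10 were higher and 24 lower than in the GFP control, beside 32.6% and 48.8% of all genes (81.4% in all). With MLX shRNA, 10 were higher and 18 lower than with NT shRNA, beside 30.8% and 39.3% of all genes (70.1% in all). The median log2 difference of the 37 was -0.15, -0.26 and -0.054 in these 3 comparisons, beside -0.051, -0.079 and -0.025 over all tested genes. The first 2 comparisons share the GFP control libraries. With the other control MLX-WT had 12 higher and 16 lower (median -0.069), beside 25.7% and 44.3% of all genes (69.9% in all). MLX-DN had 4 and 26 (median -0.18), beside 21.0% and 48.7% (69.7% in all), and MLX shRNA 12 and 23 (median -0.14), beside 37.3% and 42.8% (80.0% in all). On the log2(FPKM + 2) scale 1, 7 and 1 of the genes changed at least 1.5-fold, beside 6.86%, 15.4% and 5.91% of all genes, and none changed 2-fold. That scale understates changes of low genes. As a ratio of mean FPKM, Cln3 was at 2.45 with MLX-WT and 2.04 in MLX-DN cells, and Naglu at 0.494 in MLX-DN cells. With each library centred on its median, MLX-WT had 10 higher and 17 lower, beside 37.8% and 31.6% of all genes. MLX-DN then had 13 and 22, beside 42.0% and 39.0%, and MLX shRNA 14 and 15, beside 39.1% and 31.1%. The controls also differed. With NT shRNA 11 of the genes were higher and 20 lower than in the GFP control, beside 37.0% and 37.1% of all genes (74.1% in all), with a median of -0.12 beside -0.0013.

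**Figure D3:**
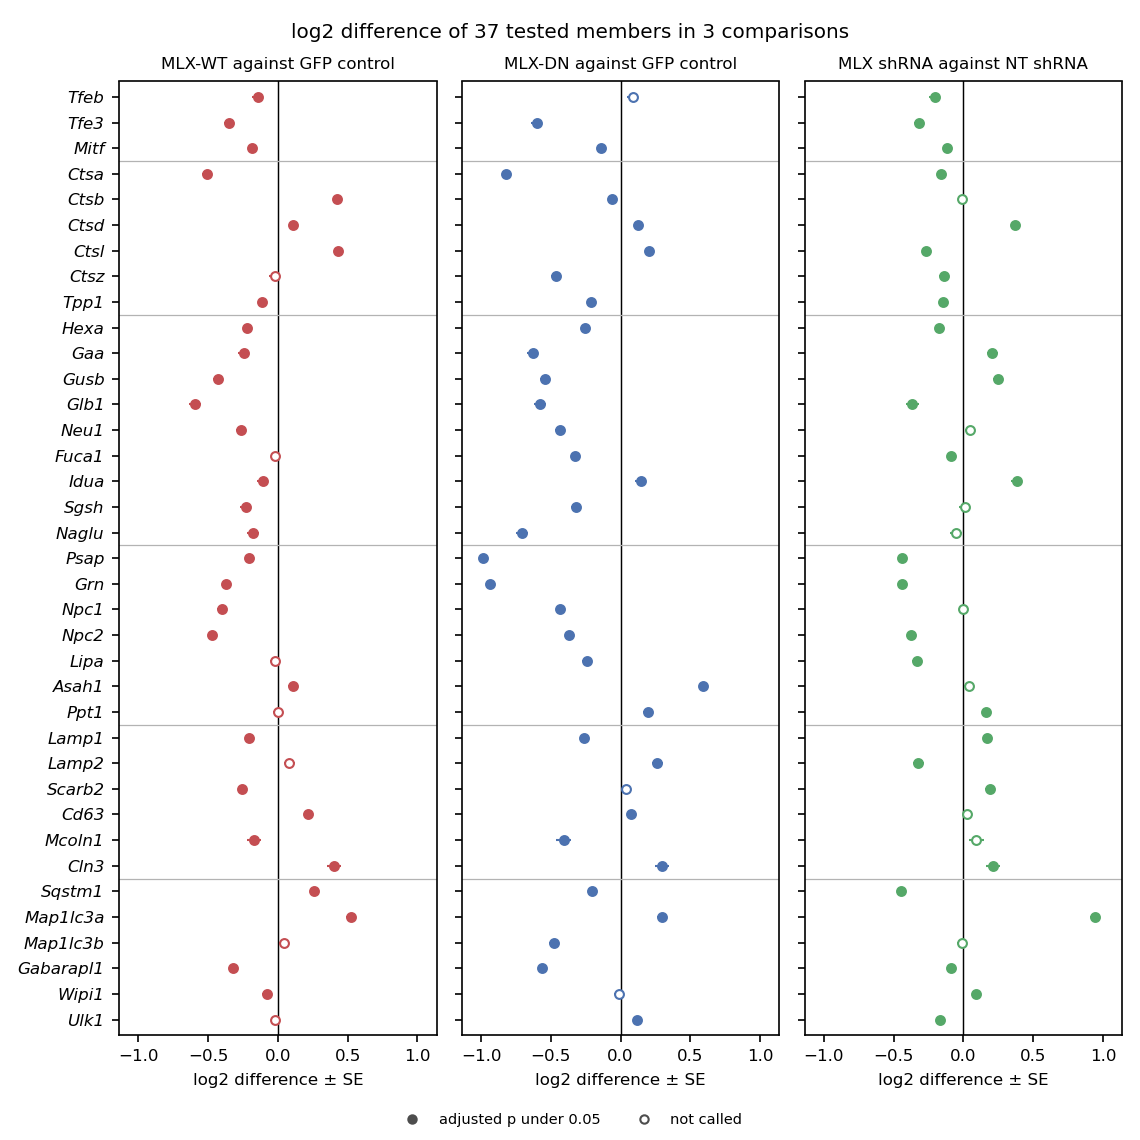
Points give the log2 difference of each tested gene with its SE (bars) in 3 panels, MLX-WT to GFP control, MLX-DN to GFP control and MLX shRNA to NT shRNA, filled where the limma adjusted p was under 0.05. Psap and Grn lie furthest left in the MLX-DN panel (-0.99 and -0.93) and Map1lc3a furthest right in the MLX shRNA panel (0.94).

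Among the transcription factors, Tfe3 was lower with every MLX construct than in either control, Mitf was lower than in the matched control each time, and Tfeb fell with MLX-WT and MLX shRNA but not with MLX-DN. Tfe3, with Tfeb a main driver of lysosomal genes, had 11.4, 11.9 and 11.01 FPKM in MLX-WT cells, 9.48, 9.25 and 9.10 in MLX-DN cells, 9.12, 10.5 and 9.98 in MLX shRNA cells, 12.4, 13.002 and 12.8 in NT shRNA cells and 15.002, 15.1 and 15.2 in the GFP control. The libraries of each MLX group lay below both controls without overlap. Against the matched control MLX-WT was at -0.35, MLX-DN at -0.60 and MLX shRNA at -0.32 on the log2 scale (SE 0.0375, limma adjusted p = 6.52e-07, 5.37e-10 and 2.00e-06). Against the other control they were -0.13, -0.39 and -0.53, all called. Tfeb had 9.33, 8.89 and 8.45 FPKM in MLX-WT cells, 11.03, 11.3 and 10.1 in MLX-DN cells, 7.73, 8.03 and 8.06 in MLX shRNA cells, 9.10, 9.69 and 9.57 in NT shRNA cells and 9.57, 10.2 and 10.4 in the GFP control. It was highest in MLX-DN cells and lowest in MLX shRNA cells, and the MLX-DN libraries overlapped those of the GFP control. Its differences were -0.15, 0.086 and -0.20 (limma adjusted p = 0.00513, 0.0638 and 3.73e-04), and between the constructs MLX-DN exceeded MLX-WT by 0.23 (adjusted p = 1.14e-04). The higher level with MLX-DN passed the limma threshold against NT shRNA (0.16, adjusted p = 0.00287), with median centring, and without MLX-DN replicate 3 (0.13, adjusted p = 0.00885) or GFP control replicate 3 (0.11, adjusted p = 0.0432), and the fall with MLX-WT did not pass against NT shRNA (-0.073, adjusted p = 0.124) or with median centring. Mitf, the third member of the family, had low levels throughout: 2.08, 1.94 and 2.05 FPKM in MLX-WT cells, 2.18, 2.24 and 2.08 in MLX-DN cells, 2.07, 1.93 and 1.91 in MLX shRNA cells, 2.33, 2.24 and 2.32 in NT shRNA cells and 2.49, 2.60 and 2.66 in the GFP control. Every group lay below the GFP control, MLX-WT at -0.19 and MLX-DN at -0.14, and MLX shRNA lay below NT shRNA, at -0.11 (limma adjusted p = 3.28e-05, 4.38e-04 and 0.00268). With median centring the Mitf calls of MLX-DN (adjusted p = 0.129) and MLX shRNA (adjusted p = 0.0638) were lost.

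Of 6 tested proteases, 3 were higher and 2 lower with MLX-WT, 2 higher and 4 lower with MLX-DN, and 1 higher and 4 lower with MLX shRNA. Against NT shRNA all 6 were lower with MLX-DN. Ctsa, the carboxypeptidase that also shields beta-galactosidase and sialidase from breakdown, had 31.2, 30.3 and 31.6 FPKM in MLX-WT cells, 24.98, 24.2 and 24.7 in MLX-DN cells, 24.01, 26.8 and 25.5 in MLX shRNA cells, 28.2, 29.8 and 27.6 in NT shRNA cells and 45.1, 44.9 and 44.8 in the GFP control. The GFP control stood above all other libraries, and MLX-WT and NT shRNA came next. Its log2 differences were -0.51 with MLX-WT, -0.82 in MLX-DN cells and -0.16 with MLX shRNA (SE 0.0339, limma adjusted p = 2.50e-09, 3.96e-12 and 6.93e-04). Against the other control they were 0.11, -0.20 and -0.78, so the direction with MLX-WT turned. Pltp, expressed at up to 51.0 FPKM by group mean, overlaps 10.5% of its exon bases on the opposite strand. Ctsl, a cysteine protease, had 345, 339 and 346 FPKM in MLX-WT cells, 294, 295 and 292 in MLX-DN cells, 274, 273 and 272 in MLX shRNA cells, 327, 333 and 327 in NT shRNA cells and 260.4, 252 and 253 in the GFP control. MLX-WT was the highest group without overlap, and MLX shRNA lay below NT shRNA. Its differences were 0.43 with MLX-WT, 0.20 in MLX-DN cells and -0.27 with MLX shRNA (limma adjusted p = 1.81e-11, 6.12e-08 and 4.93e-09), and MLX-DN turned to -0.16 and MLX shRNA to 0.096 against the other control. Gm47123 overlaps 26.85% of the exon bases of Ctsl on the opposite strand, and Gm49230 6.09% on the same strand. Ctsd, the main aspartic protease of the lysosome, had 409, 398 and 411 FPKM in MLX-WT cells, 414, 414 and 405 in MLX-DN cells, 558, 588 and 567 in MLX shRNA cells, 433, 455 and 437 in NT shRNA cells and 369.8, 384 and 379 in the GFP control. The MLX shRNA libraries stood above all others, by 0.37 against NT shRNA and 0.59 against the GFP control (limma adjusted p = 4.87e-09 and 5.83e-12). The small rises with MLX-WT (0.10) and MLX-DN (0.12) turned against NT shRNA (-0.12 and -0.10). The annotation places Gm49369 on the same strand over 34.4% of its exon bases. Ctsb, a cysteine protease, averaged 151 ± 2.35 FPKM with MLX-WT and 107 ± 1.63 in MLX-DN cells (SD, n = 3 each), its highest and lowest groups, which differed by -0.48 for MLX-DN against MLX-WT (limma adjusted p = 1.23e-10). Fdft1 overlaps 12.8% of the exon bases of Ctsb on the opposite strand. Ctsz, a cysteine carboxypeptidase, fell by 0.46 on the log2 scale in MLX-DN cells and by 0.14 in MLX shRNA cells, and Tpp1, a tripeptidyl peptidase, fell by 0.11, 0.21 and 0.14 with MLX-WT, MLX-DN and MLX shRNA.

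Of 9 enzymes that cut sugar chains, 8 fell with MLX-WT and none rose, 8 fell and 1 rose with MLX-DN, and 3 fell and 3 rose with MLX shRNA. Their median log2 difference was -0.23 with MLX-WT, -0.43 in MLX-DN cells and 0.0093 with MLX shRNA. With median centring 7 fell with MLX-WT, 8 fell and 1 rose with MLX-DN, and 2 fell and 4 rose with MLX shRNA. Gaa, the acid alpha-glucosidase that breaks down glycogen and is lost in Pompe disease, had 19.9, 18.98 and 19.9 FPKM in MLX-WT cells, 14.9, 15.01 and 13.8 in MLX-DN cells, 20.03, 22.2 and 21.5 in MLX shRNA cells, 17.5, 19.1 and 17.8 in NT shRNA cells and 23.7, 23.4 and 23.6 in the GFP control. The MLX-DN libraries were below all others, while MLX shRNA lay above NT shRNA. The differences were -0.24, -0.63 and 0.21 (SE 0.0392, limma adjusted p = 4.62e-05, 5.32e-10 and 2.19e-04). Against the other control MLX-DN stayed lower (-0.28), while MLX-WT was at 0.10 and MLX shRNA at -0.14. Gusb, beta-glucuronidase, had 13.1, 12.7 and 13.1 FPKM in MLX-WT cells, 11.4, 12.2 and 12.01 in MLX-DN cells, 19.6, 20.2 and 20.3 in MLX shRNA cells, 16.5, 17.05 and 16.1 in NT shRNA cells and 17.5, 19.1 and 18.01 in the GFP control. MLX-DN and MLX-WT were the lowest groups and MLX shRNA the highest, with no overlap between them and the controls. Its differences of -0.43, -0.54 and 0.25 (limma adjusted p = 1.16e-08, 3.83e-10 and 6.26e-06) kept their direction against the other control (-0.31, -0.42 and 0.12). Naglu, which removes N-acetylglucosamine from heparan sulfate, had 5.74, 5.37 and 5.32 FPKM in MLX-WT cells, 3.17, 3.32 and 3.08 in MLX-DN cells, 3.09, 3.53 and 3.47 in MLX shRNA cells, 3.46, 3.84 and 3.41 in NT shRNA cells and 6.11, 6.89 and 6.39 in the GFP control. MLX-WT and the GFP control were high, and the other 3 groups were close together. Its difference was -0.70 with MLX-DN (limma adjusted p = 4.74e-10), -0.18 with MLX-WT and -0.054 with MLX shRNA (adjusted p = 0.00183 and 0.279), but NT shRNA was itself at -0.60 against the GFP control. Against NT shRNA MLX-DN was at -0.10 (adjusted p = 0.0489) and MLX-WT at 0.42 (adjusted p = 4.24e-07). Glb1, lysosomal beta-galactosidase, had 9.17, 9.16 and 9.25 FPKM in MLX-WT cells, 9.35, 9.17 and 9.42 in MLX-DN cells, 6.27, 7.58 and 7.56 in MLX shRNA cells, 10.04, 9.87 and 9.33 in NT shRNA cells and 14.9, 14.6 and 15.1 in the GFP control. The GFP control was highest and MLX shRNA lowest, with MLX-WT, MLX-DN and NT shRNA between. The differences were -0.59, -0.58 and -0.37 (limma adjusted p = 1.09e-08, 7.24e-09 and 2.85e-06), of which those of MLX-WT and MLX-DN were at -0.069 and -0.054 against NT shRNA, where neither was called (adjusted p = 0.181 and 0.295). Idua, which cleaves iduronic acid from heparan and dermatan sulfate, had 0.920, 0.916 and 0.999 FPKM in MLX-WT cells, 1.37, 1.60 and 1.57 in MLX-DN cells, 2.58, 2.28 and 2.49 in MLX shRNA cells, 1.40, 1.28 and 1.57 in NT shRNA cells and 1.31, 1.15 and 1.08 in the GFP control. MLX shRNA was highest and MLX-WT lowest, without overlap. It rose with MLX shRNA by 0.38 (limma adjusted p = 5.92e-07), and was at -0.11 with MLX-WT and 0.14 in MLX-DN cells (adjusted p = 0.0247 and 0.00425). With MLX-DN the remaining enzymes also fell against the GFP control: Hexa, a beta-hexosaminidase subunit, by 0.26, the sialidase Neu1 by 0.43, the fucosidase Fuca1 by 0.33 and the heparan sulfamidase Sgsh by 0.32 on the log2 scale. Card14 overlaps 21.6% of the exon bases of Sgsh on the opposite strand, with a highest group mean of 1.77 FPKM beside 1.98 for Sgsh. Tmem202 overlaps 12.8% of those of Hexa, also on the opposite strand.

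Psap and Grn, of the lipid-handling proteins and cofactors, had the largest falls with MLX-DN on the log2(FPKM + 2) scale. As ratios of mean FPKM they were at 0.502 and 0.508, beside 0.494 for Naglu. Of the 7 genes of the group, 4 fell and 1 rose with MLX-WT, 5 fell and 2 rose with MLX-DN, and 4 fell and 1 rose with MLX shRNA. The shares of all tested genes were 42.7% and 27.6%, 48.8% and 32.6%, and 39.3% and 30.8%. Psap encodes prosaposin, the precursor of the saposins that present sphingolipids to their hydrolases. It had 324, 320.1 and 329.8 FPKM in MLX-WT cells, 189, 193 and 183 in MLX-DN cells, 214, 217 and 223 in MLX shRNA cells, 296, 304 and 290.3 in NT shRNA cells and 372, 378 and 376 in the GFP control. MLX-DN was lowest and MLX shRNA next, both below every library of the other 3 groups, and the GFP control was highest. The differences were -0.21 with MLX-WT, -0.99 in MLX-DN cells and -0.44 with MLX shRNA (SE 0.0248, limma adjusted p = 2.18e-06, 9.84e-15 and 3.46e-10). Against the other control they were 0.13, -0.65 and -0.78, so that the falls with MLX-DN and MLX shRNA held and the direction with MLX-WT turned. Grn encodes progranulin, a secreted protein that reaches the lysosome together with prosaposin. It had 47.7, 48.5 and 48.3 FPKM in MLX-WT cells, 32.3, 32.05 and 31.7 in MLX-DN cells, 28.5, 29.5 and 29.01 in MLX shRNA cells, 39.4, 41.9 and 39.2 in NT shRNA cells and 61.9, 64.1 and 63.02 in the GFP control. MLX shRNA and MLX-DN were lowest without overlap, and NT shRNA lay well below the GFP control. The differences were -0.37, -0.93 and -0.44 (SE 0.0255, limma adjusted p = 3.36e-09, 2.80e-14 and 5.05e-10), and against the other control 0.25, -0.31 and -1.07, with the same turn for MLX-WT. The last is the single 2-fold change of any of the 37 genes in these comparisons, on the log2(FPKM + 2) scale. Npc2, the soluble protein that hands cholesterol to the membrane protein NPC1, had 49.7, 49.2 and 51.2 FPKM in MLX-WT cells, 54.7, 54.5 and 52.8 in MLX-DN cells, 41.9, 43.7 and 43.2 in MLX shRNA cells, 57.8, 57.3 and 54.1 in NT shRNA cells and 69.4, 70.2 and 71.04 in the GFP control. MLX shRNA was lowest and the GFP control highest, without overlap. Its differences were -0.47, -0.37 and -0.38 (limma adjusted p = 4.54e-10, 5.04e-09 and 7.53e-09), and the lower level with MLX-DN was not called against NT shRNA (-0.060, adjusted p = 0.0629). Asah1, acid ceramidase, had the largest rise with MLX-DN on the log2(FPKM + 2) scale (in FPKM the ratio was 1.53, beside 2.04 for Cln3), at 54.3 ± 1.46 FPKM against 35.3 ± 0.970 in the GFP control (SD, n = 3 each), a log2 difference of 0.59 (limma adjusted p = 9.24e-11). NT shRNA was at 48.1 ± 1.40 FPKM, and against it the difference was 0.17 (adjusted p = 2.33e-04). Npc1 fell with MLX-WT (-0.40) and MLX-DN (-0.43), and was at -0.0048 with MLX shRNA. Lipa, the acid lipase, fell with MLX-DN (-0.24) and MLX shRNA (-0.33), and was at -0.020 with MLX-WT. Ppt1, which removes palmitate from proteins, rose with MLX-DN (0.19, but -0.00071 against NT shRNA) and MLX shRNA (0.17).

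Lysosomal membrane proteins moved in both directions. Of 6, 2 rose and 3 fell with MLX-WT, 3 rose and 2 fell with MLX-DN, and 3 rose and 1 fell with MLX shRNA. The shares of all tested genes were 27.6% and 42.7%, 32.6% and 48.8%, and 30.8% and 39.3%. For MLX shRNA median centring gave 5 and 1, beside 39.1% and 31.1% of all genes. Lamp1, an abundant protein of the limiting membrane, had 214, 208 and 218 FPKM in MLX-WT cells, 202, 210.2 and 202 in MLX-DN cells, 233, 228 and 234 in MLX shRNA cells, 204, 209 and 205 in NT shRNA cells and 242, 249 and 248 in the GFP control. The GFP control was highest and MLX shRNA second, each without overlap. The differences were -0.20, -0.26 and 0.17 (limma adjusted p = 1.44e-06, 4.05e-08 and 1.30e-05). Against the other control they were 0.049, -0.011 and -0.086, so no direction of Lamp1 held with both controls except the lower values with MLX-DN, not called against NT shRNA (adjusted p = 0.699). Mcoln1, the calcium channel of the lysosome (TRPML1) and a CLEAR gene, had 14.9, 13.5 and 14.1 FPKM in MLX-WT cells, 11.7, 12.01 and 11.3 in MLX-DN cells, 14.3, 15.1 and 15.8 in MLX shRNA cells, 13.3, 15.2 and 13.6 in NT shRNA cells and 16.4, 14.9 and 17.3 in the GFP control. MLX-DN was below all other libraries, with differences of -0.41 against the GFP control, -0.23 against NT shRNA and -0.24 against MLX-WT (limma adjusted p = 2.90e-06, 0.00135 and 8.17e-04). With MLX-WT it was at -0.17, called at adjusted p = 0.00901 by limma but not without GFP control replicate 3 (-0.13, adjusted p = 0.0540), nor with median centring, and with MLX shRNA it was at 0.094, not called (adjusted p = 0.124) except with median centring or without NT shRNA replicate 2 (0.15, adjusted p = 0.0247). Lamp2, needed for fusion of autophagosomes with lysosomes, rose with MLX-DN (0.26) and fell with MLX shRNA (-0.32), but neither was called against the other control (-0.045 and -0.015). Scarb2, the receptor that carries glucocerebrosidase to the lysosome, fell with MLX-WT (-0.26) and rose with MLX shRNA (0.19). Cln3, a membrane protein lost in juvenile Batten disease, rose with MLX-WT (0.40), MLX-DN (0.30) and MLX shRNA (0.21) from a low level, but NT shRNA was itself at 0.54 against the GFP control, and against NT shRNA MLX-WT was at -0.14 and MLX-DN at -0.24. Cd63 was higher with MLX-WT (0.22) and MLX-DN (0.072) than in the GFP control. Both turned against NT shRNA (-0.12 and -0.27, limma adjusted p = 0.00113 and 5.11e-07), which was itself at 0.34 against the GFP control.

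Autophagy genes held the largest rise on the log2(FPKM + 2) scale, that of Map1lc3a with MLX shRNA, and a gene that was higher with MLX-WT and lower in MLX-DN and MLX shRNA cells. Of 6, 2 rose and 2 fell with MLX-WT, 2 rose and 3 fell with MLX-DN, and 2 rose and 3 fell with MLX shRNA. The shares of all tested genes were 27.6% and 42.7%, 32.6% and 48.8%, and 30.8% and 39.3%. Sqstm1 encodes sequestosome, the receptor that tags ubiquitinated cargo for autophagy. It had 269, 259 and 264 FPKM in MLX-WT cells, 191, 195 and 188 in MLX-DN cells, 154, 160.0 and 158 in MLX shRNA cells, 216, 218 and 211 in NT shRNA cells and 219, 226 and 219 in the GFP control. MLX-WT lay above all other libraries, and MLX-DN and MLX shRNA lay below both controls, with no overlap. The differences were 0.26, -0.21 and -0.45 (SE 0.0235, limma adjusted p = 1.10e-07, 7.14e-07 and 1.56e-10), and against the other control 0.29, -0.17 and -0.49. The controls differed by -0.040 (adjusted p = 0.140). Mrnip overlaps 17.3% of its exon bases on the opposite strand. Map1lc3a, which encodes an LC3 protein that is attached to autophagosome membranes, had 182, 179 and 178 FPKM in MLX-WT cells, 157, 158 and 143 in MLX-DN cells, 196, 209.7 and 198 in MLX shRNA cells, 105, 104 and 101 in NT shRNA cells and 122, 126 and 124 in the GFP control. All 9 libraries of the MLX groups stood above the 6 control libraries. It rose by 0.52 with MLX-WT, 0.29 in MLX-DN cells and 0.94 with MLX shRNA against the matched control (SE 0.0343, limma adjusted p = 1.98e-09, 9.21e-07 and 1.98e-12), and by 0.78, 0.55 and 0.69 against the other. Its paralog Map1lc3b had 56.5, 54.9 and 58.2 FPKM in MLX-WT cells, 38.1, 39.1 and 39.3 in MLX-DN cells, 41.3, 42.7 and 40.5 in MLX shRNA cells, 40.2, 42.04 and 43.3 in NT shRNA cells and 52.8, 56.7 and 55.2 in the GFP control. MLX-WT and the GFP control were high, and MLX-DN, MLX shRNA and NT shRNA were low. It was at 0.041 with MLX-WT and -0.011 with MLX shRNA, neither called (limma adjusted p = 0.276 and 0.777), and fell by 0.48 with MLX-DN (adjusted p = 1.57e-09). Against NT shRNA MLX-WT was at 0.42 and MLX-DN at -0.10, with NT shRNA at -0.38 against the GFP control. With the other control MLX shRNA was at -0.39. Gabarapl1, of the same conjugated family, fell with MLX-WT (-0.32, but 0.023 against NT shRNA), MLX-DN (-0.56) and MLX shRNA (-0.089), and a gene on the opposite strand covers 28.3% of its exon bases. Ulk1, the kinase that starts autophagy, rose with MLX-DN (0.12) and fell with MLX shRNA (-0.17), and both turned against the other control (-0.24 and 0.19). Wipi1, which binds the forming autophagosome, was at -0.078 with MLX-WT, -0.013 in MLX-DN cells and 0.094 with MLX shRNA (limma adjusted p = 0.0480, 0.719 and 0.0201), and its MLX shRNA libraries overlapped those of NT shRNA. Against the other control it was at 0.12, 0.18 and -0.10 (adjusted p = 0.00552, 1.76e-04 and 0.0114), each with the opposite sign.

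**Figure D4:**
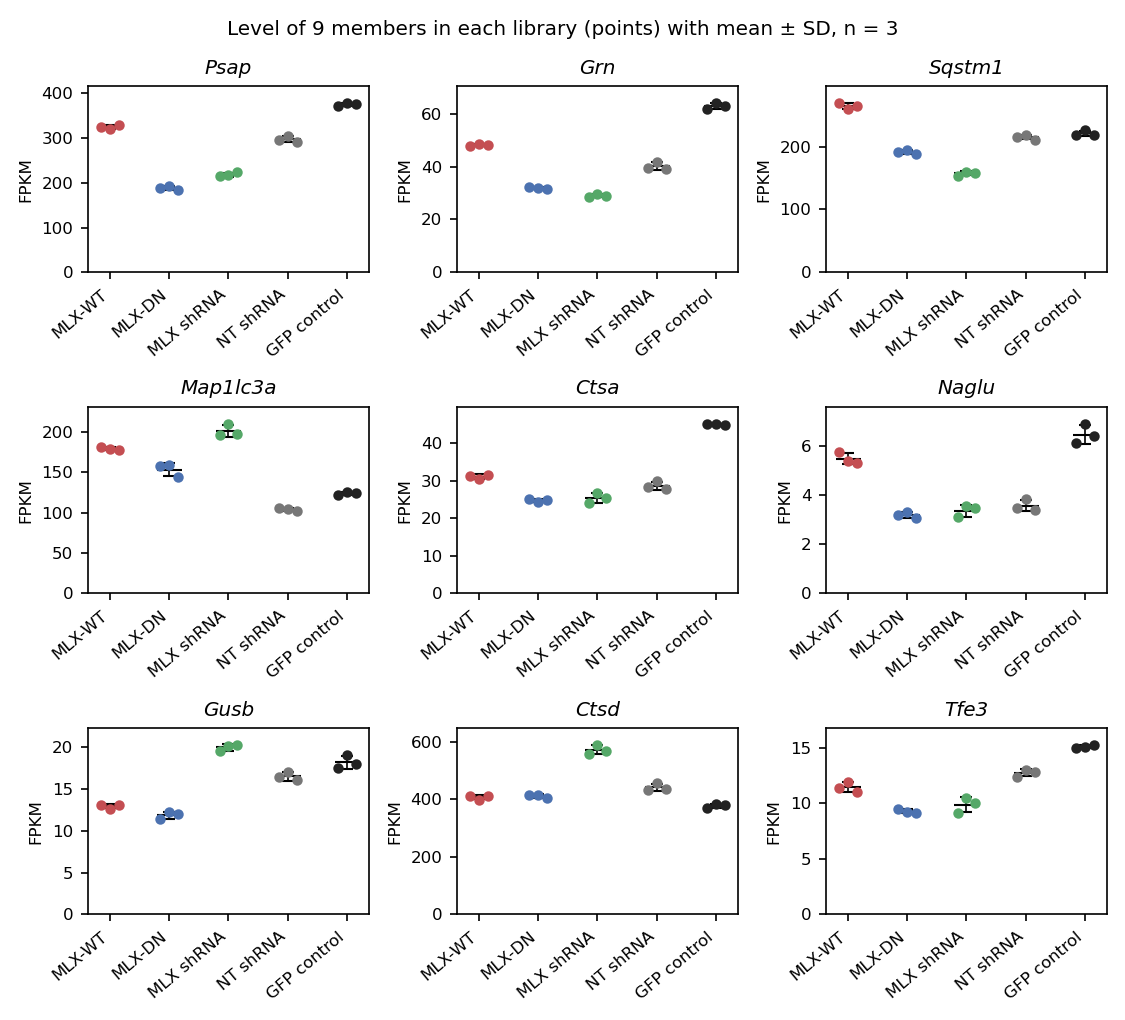
Points give the FPKM of each library, with the mean and SD of the 3 libraries of a group (bars), for 9 of the genes, on axes that start at 0. Psap and Grn are lowest with MLX-DN and MLX shRNA, Sqstm1 is highest with MLX-WT, and Map1lc3a is higher in all 9 MLX libraries than in the 6 control libraries.

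Calls that had the same direction against both controls set aside values that turn on the choice of control. With MLX-DN, 20 of the 37 genes were lower than in either control (54.1%, beside 34.9% of all tested genes) and 2 higher, Asah1 and Map1lc3a (5.41%, beside 15.1%). With MLX shRNA 15 were lower (40.5%, beside 28.0%) and 7 higher (18.9%, beside 21.4%). With MLX-WT 9 were lower (24.3%, beside 23.5%) and 4 higher, Ctsb, Ctsl, Sqstm1 and Map1lc3a (10.8%, beside 11.4%). The 20 genes lower with MLX-DN were Tfe3, the proteases Ctsa, Ctsb, Ctsz and Tpp1, the sugar-chain enzymes Hexa, Gaa, Gusb, Neu1, Fuca1, Sgsh and Naglu, the lipid proteins and cofactors Psap, Grn, Npc1 and Lipa, the channel Mcoln1, and the autophagy genes Sqstm1, Map1lc3b and Gabarapl1. With each library centred on its median the count was 15, without Ctsb, Neu1, Sgsh, Naglu and Map1lc3b, beside 21.9% of all genes, and 6 were higher, beside 25.3%. The genes lower with MLX-WT were then 5, beside 13.6%. In 11 of the 37 (29.7%, beside 16.2% of all genes) all 3 MLX-DN libraries were below the other 12. Against MLX-WT, MLX-DN had 8 genes higher and 21 lower, beside 33.2% and 38.9% of all genes (72.1% in all), with a median of -0.11 beside -0.022. Col1a1, which made up most of the fibroblast marker sum given above, was lowest with MLX-DN and MLX shRNA and highest in the GFP control, as were Psap and Grn. The other fibroblast markers had other orders. Dpt and Lum were highest with NT shRNA (4.65 and 0.974 FPKM) and Pdgfra with MLX-WT (2.87), and Thy1 stayed at or below 0.0437. The part of these markers in the counts was not tested.

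MLX-DN and MLX shRNA, set against different controls, share no library. Of the 24 genes lower with MLX-DN and the 18 lower with MLX shRNA, 14 were the same (58.3% and 77.8%). They make up 37.8% of the 37, beside 23.1% of all tested genes. The shared genes were Tfe3, Mitf, Ctsa, Ctsz, Tpp1, Hexa, Glb1, Fuca1, Psap, Grn, Npc2, Lipa, Sqstm1 and Gabarapl1. Ctsd, Idua, Ppt1, Cln3 and Map1lc3a were higher in both, 5 of the 10 higher with each (13.5% of the 37, beside 13.7% of all genes). Ctsl, Lamp2 and Ulk1 were higher in MLX-DN cells and lower in MLX shRNA cells (8.11%, beside 10.5%), and Gaa, Gusb and Lamp1 the reverse (8.11%, beside 11.1%). The difference between the effects was tested directly. For the MLX-DN effect minus the MLX shRNA effect, 6 of the 37 were positive and 21 negative, beside 74.8% of all genes called (32.0% and 42.8%), with a median of -0.24 beside -0.063. Of the 9 sugar-chain enzymes 8 were more negative with MLX-DN and none more positive, each effect taken against its matched control. The largest such differences on the log2(FPKM + 2) scale were -0.84 for Gaa, -0.79 for Gusb, -0.66 for Ctsa, -0.65 for Naglu and -0.65 for Map1lc3a (limma adjusted p = 2.13e-09, 5.19e-10, 6.26e-09, 1.31e-07 and 9.02e-09). Lamp2 (0.59) and Asah1 (0.55) were the largest in the other direction. Psap and Grn fell with both. Against the matched controls both genes fell further with MLX-DN, by 0.55 and 0.49 on the log2 scale (limma adjusted p = 1.45e-09 and 7.14e-09). Sqstm1 fell further with MLX shRNA (0.24, limma adjusted p = 8.72e-06). Each effect carries its own control, so a difference between NT shRNA and the GFP control enters these values. NT shRNA was at -0.63 for Grn, -0.62 for Ctsa and -0.60 for Naglu against the GFP control. With the GFP control for both, Grn (-0.93 in MLX-DN and -1.07 in MLX shRNA) and Glb1 (-0.58 and -0.89) fell further with MLX shRNA. Ctsa was then at -0.82 and -0.78, and Naglu at -0.70 and -0.66. Psap (-0.99 and -0.78), Gaa (-0.63 and -0.14), Gusb (-0.54 and 0.12) and Map1lc3a (0.29 and 0.69) remained lower with MLX-DN. No test set MLX-DN cells beside MLX shRNA cells.

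**Figure D5:**
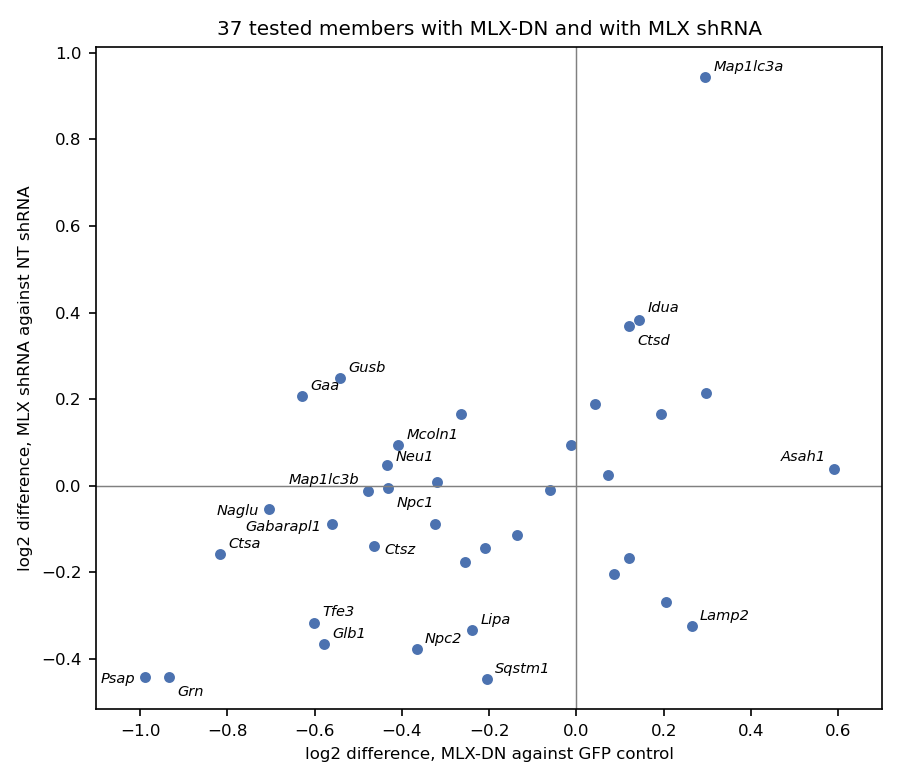
Each point is a tested gene, placed by its log2 difference with MLX-DN against the GFP control (horizontal) and with MLX shRNA against NT shRNA (vertical). Psap, Grn, Tfe3 and Glb1 lie at the lower left, Gaa and Gusb at the upper left, and Map1lc3a at the top.

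Tested genes with and without CACGTG in the promoter window were set side by side. With MLX-DN against the GFP control 3 of the 10 were higher and 7 lower (median log2 difference -0.36), beside 5 higher and 15 lower of the 23 tested genes with a window and no CACGTG (median -0.24). Of all tested genes 32.6% were higher and 48.8% lower (median -0.079). Against NT shRNA none of the 10 was higher and 8 were lower with MLX-DN, beside 2 and 16 without the motif, with medians of -0.17 and -0.19. Of all genes 21.0% and 48.7% were. With MLX-WT 3 were higher and 7 lower (median -0.19), beside 2 and 14 without the motif (median -0.11) and 27.6% and 42.7% of all genes. With MLX shRNA 4 were higher and 3 lower (median 0.052), beside 5 and 15 without it (median -0.14) and 30.8% and 39.3% of all genes. With the other control the counts moved. MLX-WT had 4 higher and 3 lower with the motif (median 0.031) and 6 and 11 without it (median -0.073), and MLX shRNA had 3 and 6 with it (median -0.11) and 6 and 16 without it (median -0.23). Of all genes 25.7% were higher and 44.3% lower with MLX-WT, and 37.3% and 42.8% with MLX shRNA. Among the genes with TCACGTGA, whose windows are printed above, Ctsa and Mcoln1 fell with MLX-DN and Ctsd and Cln3 rose against the GFP control, and all 4 were lower than with NT shRNA (-0.20, -0.23, -0.10 and -0.24, limma adjusted p = 9.33e-05, 0.00135, 0.00226 and 4.64e-04). Psap, Grn and Sqstm1 had no CACGTG in their windows.

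Other genes of the pathway were counted from separate lists. Of 43 tested genes for further hydrolases and lysosomal proteins, 13 were higher and 18 lower with MLX-WT, 9 and 22 in MLX-DN cells and 12 and 14 with MLX shRNA, with medians of -0.029, -0.11 and -0.027. These were 72.1%, 72.1% and 60.5% of the 43, beside 70.3%, 81.4% and 70.1% of all tested genes, whose medians were -0.051, -0.079 and -0.025. Against NT shRNA, 8 were higher and 27 lower with MLX-DN (median -0.17, beside -0.085 over all genes) and 16 and 14 with MLX-WT, and against the GFP control 12 and 18 with MLX shRNA. In these 3 comparisons 81.4%, 69.8% and 69.8% were called, beside 69.7%, 69.9% and 80.0% of all genes. Ctsc, the dipeptidyl peptidase that activates serine proteases of immune cells, averaged 1.60 ± 0.0950 FPKM with MLX-WT, 0.0427 ± 0.0111 in MLX-DN cells, 0.0364 ± 0.0241 with MLX shRNA, 0.810 ± 0.146 with NT shRNA and 2.001 ± 0.175 in the GFP control (SD, n = 3 each). Its log2 difference with MLX-DN was -0.97 on the log2(FPKM + 2) scale, which understates changes at such levels (limma adjusted p = 3.14e-12). The low values are near the worth of 3 reads at 2000 bases of transcript (0.0182 to 0.0405 FPKM). Ctsh, an aminopeptidase of the cathepsin family, averaged 6.62 ± 0.229 FPKM with MLX-WT, 6.52 ± 0.0959 in MLX-DN cells and 5.31 ± 0.697 with MLX shRNA, against 2.09 ± 0.123 with NT shRNA and 3.07 ± 0.0766 in the GFP control. Like Map1lc3a it rose with all 3 constructs (0.77, 0.75 and 0.83, limma adjusted p = 2.31e-09, 1.48e-09 and 9.08e-10). Man2b1, lysosomal alpha-mannosidase, rose with MLX-DN (0.93), but NT shRNA was at 1.17 against the same control. Igf2r, the receptor that sorts enzymes by their mannose phosphate tag, fell with MLX-WT (-0.59). With MLX shRNA, Lgmn, the asparaginyl protease legumain, fell (-0.78) and Sort1, the sorting receptor sortilin, rose (0.61). Sort1 averaged 4.35 FPKM with MLX shRNA, 2.17 with NT shRNA and 3.23 in the GFP control.

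Of 18 subunits of the V-ATPase, the pump that acidifies the lysosome, 8 were higher and 4 lower with MLX-WT, 11 and 7 in MLX-DN cells, and 10 and 6 with MLX shRNA. These were 66.7%, 100% and 88.9% of the 18, beside 70.3%, 81.4% and 70.1% of all tested genes. The medians of the subunits, 0.053, 0.092 and 0.11, had the sign opposite to those of the 37 genes and of all tested genes (-0.051, -0.079 and -0.025). With MLX-DN against NT shRNA, however, 5 were higher and 10 lower (median -0.075, beside -0.085 over all genes). MLX-WT had 6 and 6 against NT shRNA, and MLX shRNA 12 and 5 against the GFP control. In these 3 comparisons 83.3%, 66.7% and 94.4% were called, beside 69.7%, 69.9% and 80.0% of all genes. Tcirg1, a membrane subunit best known from osteoclasts, fell with MLX-DN (-0.63 against the GFP control and -0.65 against NT shRNA, limma adjusted p = 9.91e-11 and 4.26e-10). With MLX shRNA the subunit genes Atp6v0e2 (0.81) and Atp6v1b2 (0.40) rose and Atp6v1a (-0.57) fell. Of 38 other autophagy genes, 16 were higher and 11 lower with MLX-WT, 18 and 10 in MLX-DN cells, and 9 and 14 with MLX shRNA (71.1%, 73.7% and 60.5% called, beside 70.3%, 81.4% and 70.1% of all genes). With the other control these counts were 12 and 19, 12 and 17, and 22 and 9, so more were lower with MLX-WT and MLX-DN and more higher with MLX shRNA. That was 81.6%, 76.3% and 81.6% called, beside 69.9%, 69.7% and 80.0% of all genes. NT shRNA had 21 higher and 6 lower than the GFP control (71.1%, beside 74.1%). Bnip3, a mitophagy receptor, averaged 66.9 ± 0.585 FPKM with MLX-WT and 70.3 ± 1.27 in MLX-DN cells, against 23.1 ± 1.20 in the GFP control (1.46 and 1.53, limma adjusted p = 5.46e-15 and 1.35e-15), and NT shRNA was itself at 1.22. Among 17 tested genes from a list on the kinase complex mTORC1 and nutrient signalling at the lysosome, 8 were higher and 6 lower with MLX-WT. In MLX-DN cells 9 were higher and 6 lower, and with MLX shRNA 8 and 2. With the other control they were 5 and 9, 5 and 7, and 12 and 3. The genes called were 82.4%, 88.2% and 58.8% with the matched control and 82.4%, 70.6% and 88.2% with the other, beside the shares of all genes just given. With MLX-DN Rheb, the GTPase that switches on the kinase complex, rose (0.46, with NT shRNA at 0.36), and Lamtor1 (-0.43), an anchor of that complex on the lysosome, and Flcn (-0.35), which controls the transport of TFEB and TFE3 into the nucleus, fell. With MLX shRNA the anchor genes Lamtor4 (0.52) and Lamtor2 (0.47) and the GTPase gene Rragd (0.41) rose.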

How the data were processed

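The 15 libraries hold messenger RNA of C2C12 cells and were put into 5 groups of 3 by their titles. Per the labels' protocols, a stranded kit was used after poly(A) enrichment. CASAVA, TopHat2 and STAR and the build mm9 are named in the submitters' processing notes, without versions. No source used here says whether reads were counted by strand, so genes that overlap on opposite strands are uncertain.

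What the authors deposited is 1 table with log2 of FPKM for 23352 genes (FPKM is scaled to transcript length and depth). Since every library's lowest value is 1, the deposited log2 values were taken as log2(FPKM + 2), and FPKM as the antilog less 2. Log2 differences on that scale understate changes at low levels. In the absence of counts, depth came from the spacing of low values in 15972 genes of a single transcript length: 67.0% to 70.3% of them were within 0.05 of whole reads at the chosen depth (10% if spread evenly, at most 47.1% at nearby depths). No count model was used, and floors cover counting error only.

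Genes of at least 1 FPKM in at least 3 libraries (11945) were fitted in limma 3.58.1 under R 4.3.3, using all 15 libraries, 1 coefficient for each group and a variance trend. Tests were two-sided, with Benjamini-Hochberg adjustment over all tested genes and a threshold of 0.05. Per-library values are given for the 6 called genes of largest absolute difference whose groups do not overlap, in each of the 3 main comparisons, and for Tfeb, Tfe3, Mitf, Sqstm1, Map1lc3b, Lamp1, Ctsd and Mcoln1. Up to 3 called genes of largest difference come from each other list and comparison. Members, lists, tests and this rule were chosen with earlier results of these data known. Motifs were searched in RefSeq promoter windows, and shared exon bases were computed from the GENCODE M21 annotation (GRCm38). The fit was tested on simulated data. Recomputations varied the offset, filter, scaling, variance model, libraries, control and replicate block. The pairing of the other control with median centring, and the recomputed counts against both controls, were added after seeing the data.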

Additional observations from a re-analysis of the deposited data

How the results depend on the processing

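The 3 main comparisons and both comparisons between other groups were recomputed with offsets of 1 and 0.1, without a filter and with a mean of at least 5 FPKM, with median centring and quantile normalization, without a variance trend, with 2 groups in the fit, with a replicate block, with the other control and without each library. Of the counts, 294 recomputed values stayed within 1.5 times the reported count and 6 did not. MLX-DN had 4 genes higher with NT shRNA as its control. MLX-WT had 15 higher and 10 lower with NT shRNA and median centring together. Against both controls, MLX-WT had 5 lower with median centring, and MLX-DN had 6 higher with median centring and 4 with quantile normalization. Of the recomputed medians of the tested genes, 69 moved by less than the spread of library medians within groups and 12 by more. With median centring the median was -0.077 for MLX-WT and -0.17 for MLX-DN against the GFP control. For MLX-WT it was 0.0018 with NT shRNA and median centring together. Single genes were recomputed for 40 values, those of the 8 genes always given, in the 3 main comparisons, and of the genes of largest difference, in the comparison that chose them. Of these recomputed values, 605 kept their side of the threshold, 13 lost and 11 gained a call, and 6 turned with a call before or after. Changes of sign where neither value was called are among the 605, as for Map1lc3b with MLX shRNA (-0.038 to 0.013 without 1 library). Those 6 were, with NT shRNA as the control, Ctsa 0.11, Lamp1 0.049, Ctsd -0.12 and Mcoln1 0.012 with MLX-WT and Ctsd -0.10 with MLX-DN, and, with the GFP control, Lamp1 -0.086 with MLX shRNA. The cause was not tested. Other genes and comparisons are not in that count, and several of them, such as Cd63, Wipi1 and Ulk1, and Psap and Grn with MLX-WT, also turned with the other control, as their values in the text show. Without 1 library, the genes higher and lower were 8 to 8 and 20 to 22 with MLX-WT, 9 to 11 and 23 to 24 with MLX-DN, and 9 to 11 and 17 to 18 with MLX shRNA. With the replicate number as a block they were 8 and 21, 10 and 24, and 10 and 18. The numbers were not taken as pairs, since the deviations of same-numbered libraries correlated at -0.0933 to 0.182 (over 0.1 in 4 of 30 pairs). The table holds no counts, so no count test was run. With 3 libraries a group the spread rests on the 15 libraries together, and depth limits low genes such as Ctsk and Ctsc.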
